A study of Mus musculus with 35 samples.

Results

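This comparison asked how the gene expression of the pancreatic lymph node differed between NOD mice of 12 weeks and of 4 weeks, ages that span the start of insulitis. It rests on 13 of the 35 arrays of the series, which are all the arrays labelled PLN_4w (n = 6) and PLN_12w (n = 7). Each array carried lymph node RNA of female NOD/LtJ mice in the Cy3 channel. The Cy5 channel carried pooled RNA of female NOD.B10Sn-H2b/J mice, called NOD.B10 here. The measurement is the strain ratio, the log2 of the NOD signal over the NOD.B10 signal, and a difference is the mean ratio at 12 weeks minus that at 4 weeks. The labels call the NOD RNA diabetic at both ages, give no glucose values and do not say how many animals stand behind an array, so every p-value rests on spread from array to array, which may be technical.

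The NOD mouse develops autoimmune diabetes after immune cells enter the pancreatic islets. The pancreatic lymph node drains that organ, and it is there that dendritic cells show islet antigens to naive T cells. NOD.B10 mice share most of the NOD genome but carry another haplotype of the major histocompatibility complex (MHC), the gene cluster for the molecules that present peptides, and do not become diabetic. The lymph node also holds stromal cells that express tissue-restricted genes under regulators such as Aire and Deaf1, which shows such antigens to passing T cells.

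A ratio can move because the NOD signal moved or because the control did. The design text names 2 pools of control mice, one of 10 mice aged 10 days and one of 10 mice aged 20 weeks. It does not say which array received which pool, and neither pool was matched in age to these groups. Each channel was therefore also fitted alone. The control signal of several lists differed more between ages than within one. The mean log2 control signal of the pancreatic acinar list was 13.47 to 13.92 on the arrays of 10 days, 14.82 to 15.31 at 4 weeks, 16.85 to 17.45 at 12 weeks and 16.23 to 16.8 at 20 weeks. That of the erythroid list was 11.62 to 12.12 at 10 days, 11.64 to 12.02 at 4 weeks, 10.62 to 11.27 at 12 weeks and 10.6 to 10.78 at 20 weeks. Other lists moved little, such as the T cell receptor list with control medians of 11.99 at 4 weeks and 12.06 at 12 weeks. Replicate 7 at 12 weeks stood apart in the control, with 11.89 for the MHC class II list against 12.8 to 12.94 on the other 6. Its control signal for Cd74 was 14.16 against 15.6 to 15.89. No other array of the series shared its day of scanning or its scanner, so for this array the scan and the control RNA cannot be told apart. The spread between animals of the control strain is left out, and another pool, another labelling and another age of the control cannot be told apart. In all lists, fewer cells of a type and less RNA per cell cannot be told apart either.

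The arrays of 4 weeks were scanned on 1 day with 1 scanner, and no other age was scanned on that day, so the day of scanning cannot be told apart from the age. Between 69% and 85.9% of NOD spots were well above background at 4 weeks and 43% to 70.2% at 12 weeks. For the control, these shares were 42.4% to 49.5% and 36.3% to 70.6%. The 70.6% was that of replicate 7, and the highest of the other arrays of 12 weeks was 47.3%. Replicates 5 and 6 at 12 weeks stood apart from the other 5. Over all genes their ratios correlated with those of the others at 0.22 to 0.38, whereas the other 5 correlated among themselves at 0.47 to 0.73. Results that rest on them are given with and without them.

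Of 28438 genes tested, 5056 (17.8%) had a higher ratio at 12 weeks and 5472 (19.2%) a lower one at a Benjamini-Hochberg adjusted p under 0.05 in limma, the threshold used throughout. With each array centred on its median, 5871 were higher and 4597 lower. A difference of at least 1 on the log2 scale was reached by 2044 (7.19%) higher and 2622 (9.22%) lower genes. In 1688 genes (5.94%) the lowest array of 12 weeks lay above the highest of 4 weeks, and in 1676 genes (5.89%) the order was the opposite. Lists of well expressed genes are better read against the 12659 genes measured in both channels at both ages, of which 30.8% were higher and 25.3% lower. The fit with scanner as a block, in which 4 weeks is tied to the other ages through 1 array of 8 weeks, called 1144 higher and 1626 lower. The fit with the acinar and islet ratios of each array as covariates called 2060 and 2029. Each of these covariates is the mean ratio of its gene list on the array.

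Fewer genes passed in the channels alone. In the NOD channel 1487 genes (5.23%) were higher at 12 weeks and 1770 (6.22%) lower, a count that fell to 921 and 1170 without replicate 2 at 4 weeks. When the signal was scaled on the 75th percentile instead, 1068 were higher and 799 lower. In the control channel 3962 (13.9%) were higher and 3840 (13.5%) lower. That scaling moved the median control difference over all genes from 0.06 to 0.18. Among the 4666 genes with a difference of at least 1, the median share of the difference carried by the control was 0.59, with quartiles at 0.33 and 0.81. The control carried under 0.25 of it in 20% of these genes and over 0.75 in 31.2%. The plot of the channels against each other shows that higher ratios mostly combined a rise in NOD with a fall in the control. Most of these NOD rises did not pass: of the 2044 higher genes, 538 were called higher in NOD. In 703 of the 2044 (34.4%) the control carried over 0.75 of the difference.

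**Figure D1:**
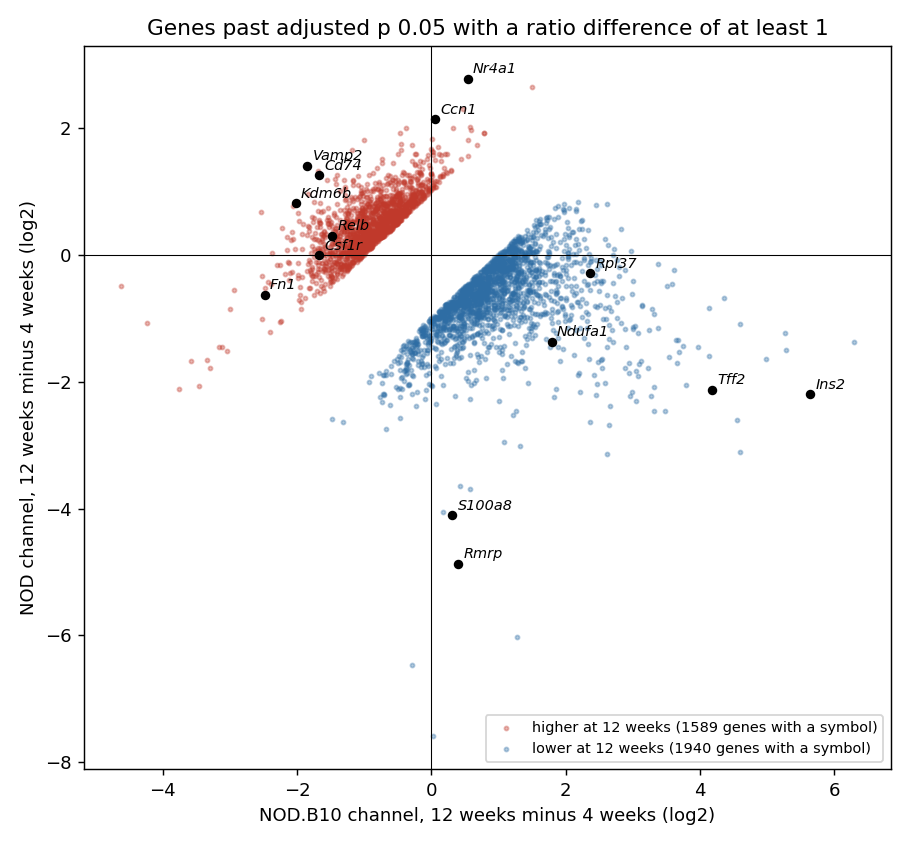
Difference between 12 and 4 weeks in the NOD.B10 channel (x axis, log2) against the NOD channel (y axis, log2) for genes with a symbol, an adjusted p under 0.05 and a ratio difference of at least 1; each point is a gene, red where the ratio was higher at 12 weeks and blue where lower. The empty diagonal band is set by the size limit; S100a8 and Rmrp lie near 0 on the x axis and far below 0 on the y axis, while Ins2 lies at 5.64 on the x axis.

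The higher ratios were mainly ratios that had been low at 4 weeks. Of the 2044 genes that were higher by at least 1, 1692 (82.8%) had a mean farther from 0 at 4 weeks than at 12 weeks. Their median ratio was -1.06 at 4 weeks, 0.13 at 8 weeks and 0.3 at 12 weeks. For 1761 of them (86.2%) the 8-week mean (n = 4 arrays) was nearer to 12 weeks than to 4 weeks. The 2622 lower genes were more even, with medians of 0.75 at 4 weeks, -0.17 at 8 weeks and -0.75 at 12 weeks, and 60.1% were nearer to 12 weeks at 8 weeks. These genes were chosen on the outer ages, so the medians describe them and test nothing.

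Probes for one gene did not always agree. Of 2162 genes with several called probes, 638 (29.5%) had calls in opposite directions. With probes whose signal cleared background in each channel of all 13 arrays, this held for 169 of 802 genes (21.1%) and for 92 of 563 accessions (16.3%). Each gene below is represented by its brightest probe, and other probes are given for some genes only. A dimmer probe each of Icosl, Csf1r, Fn1 and Rpl37, above background in the control on at most 2 of 13 arrays, did not pass (adjusted p = 0.356, 0.22, 0.59 and 0.748).

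**Figure D2:**
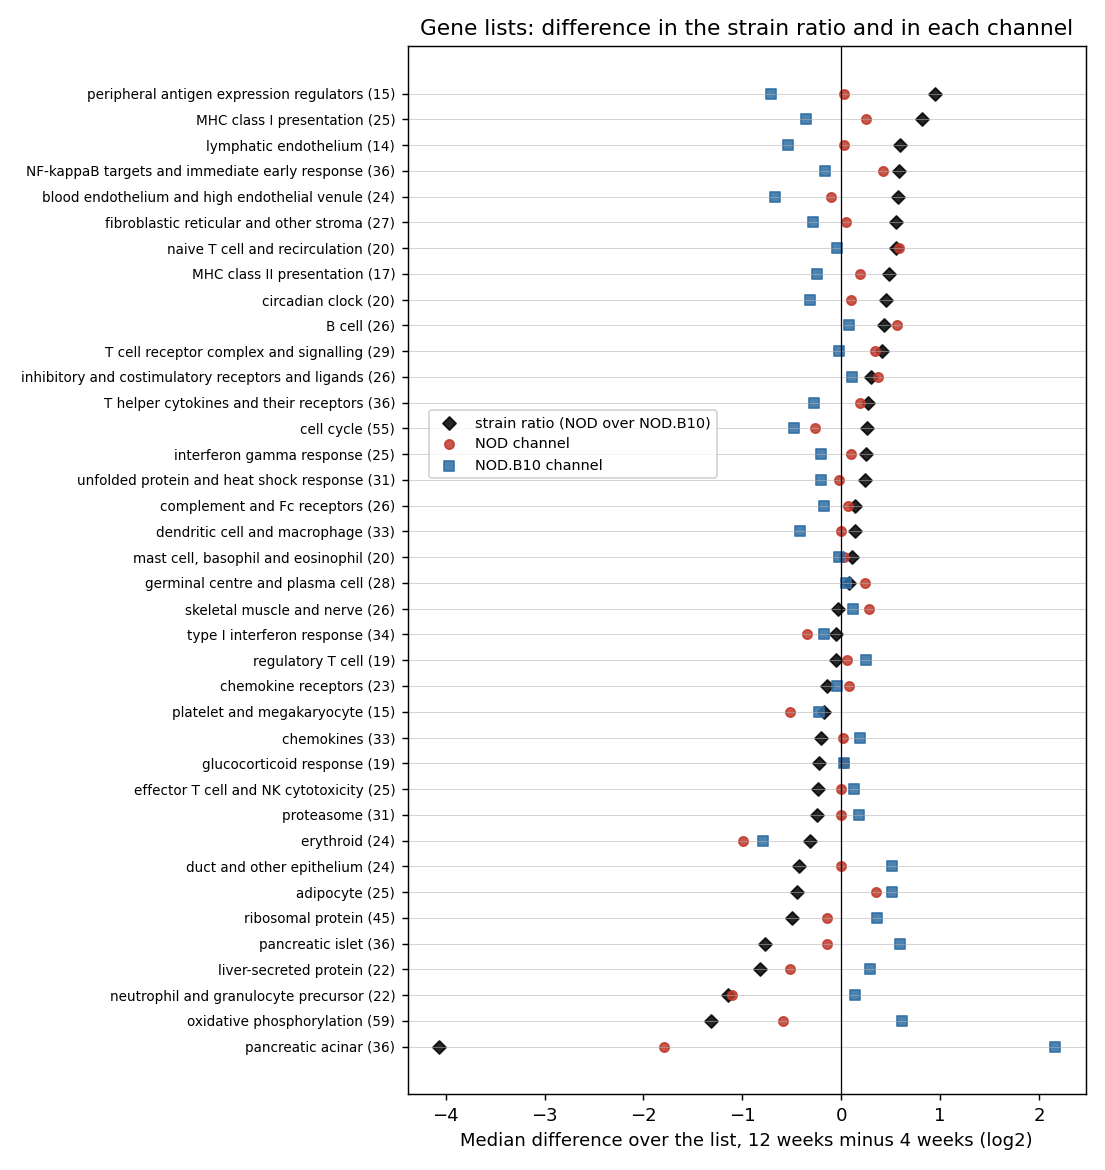
Median difference between 12 and 4 weeks (x axis, log2) for each gene list (rows, number of genes tested in brackets) in the strain ratio (black diamonds), the NOD channel (red circles) and the NOD.B10 channel (blue squares). Pancreatic acinar genes have the lowest ratio median, at -4.07, and oxidative phosphorylation follows at -1.32.

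Genes of MHC class I presentation, which show peptides from inside the cell to CD8 T cells, were higher at 12 weeks relative to the control. Of 25 tested, 15 rose and 2 fell, where 17.8% and 19.2% of all genes did, and the median difference was 0.82 against -0.079 over all genes. H2-D1, a classical class I heavy chain, had ratios from -3 to -1.97 at 4 weeks, median -2.61, and from -0.87 to -0.18 at 12 weeks, median -0.54. The groups did not overlap, and NOD nodes stayed below the control on all 13 arrays. The difference was 2.06 ± 0.16 (SE; adjusted p = 1.25e-11), or 4.18-fold. In the NOD channel alone H2-D1 was higher by 1.12 (adjusted p = 0.013). The nonclassical genes H2-T23 and H2-Q7 rose by 1.74 ± 0.15 and 1.89 ± 0.17, and Tapbp, which loads peptides onto class I, by 1.35 ± 0.13. H2-K1, another classical heavy chain, rose by 1.58 ± 0.25 with a control share of 0.115 and a NOD difference of 1.4 (adjusted p = 0.00255). Its groups overlapped, from -1.22 to -0.31 and from -0.64 to 1.46. In the class I list 1 member was saturated on at least 1 array. Of the list, 5 members were higher and 1 lower in the NOD channel, where 5.23% and 6.22% of all genes were, and 4 to 10 were higher when an array was left out in turn. The acinar and islet covariates left 9 that rose in the ratio and the scanner block 8. In the control 2 were higher and 11 lower, against 13.9% and 13.5% of all genes. The strains carry different haplotypes, though not every locus need differ in allele, and which of these genes do was not tested. Where alleles differ, a probe that binds one better shifts both ages alike only where that bias stays the same.

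Among genes of MHC class II presentation, which show peptides taken up from outside to CD4 T cells, 6 of 17 tested rose (35.3%, and 6 of the 15 measured) and 1 fell, where 17.8% of all tested and 30.8% of all measured genes rose. Cd74, the invariant chain that guides class II molecules to the loading compartment, had ratios from -2.51 to -2.17 at 4 weeks, median -2.28. At 12 weeks they ran from 0.14 to 1.26, median 0.53. All arrays of 4 weeks were below the control and all of 12 weeks above it. The difference was 2.92 ± 0.16 (SE; adjusted p = 1.05e-14), or 7.58-fold, of which the control carried 0.572. Cd74 in the NOD channel was higher by 1.25 (adjusted p = 0.00442). H2-Ab1, the class II beta chain whose NOD allele is the best known diabetes locus of this strain, rose by 1.98 ± 0.15 and by 0.93 in the NOD channel (adjusted p = 0.0047). H2-Eb1 rose by 1.34 ± 0.22 and the protease Lgmn by 1.03 ± 0.15, while their NOD channels did not pass (adjusted p = 0.0677 and 0.505). H2-Aa, the alpha chain that pairs with H2-Ab1, differed by 0.61 ± 0.29 (adjusted p = 0.0955), and a second probe by 0.28 ± 0.32. It passed without replicate 7 at 12 weeks (0.78, adjusted p = 0.0294) or without replicate 1 (0.74, adjusted p = 0.0451), and fell to 0.082 (adjusted p = 0.79) without replicates 5 and 6.

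**Figure D3:**
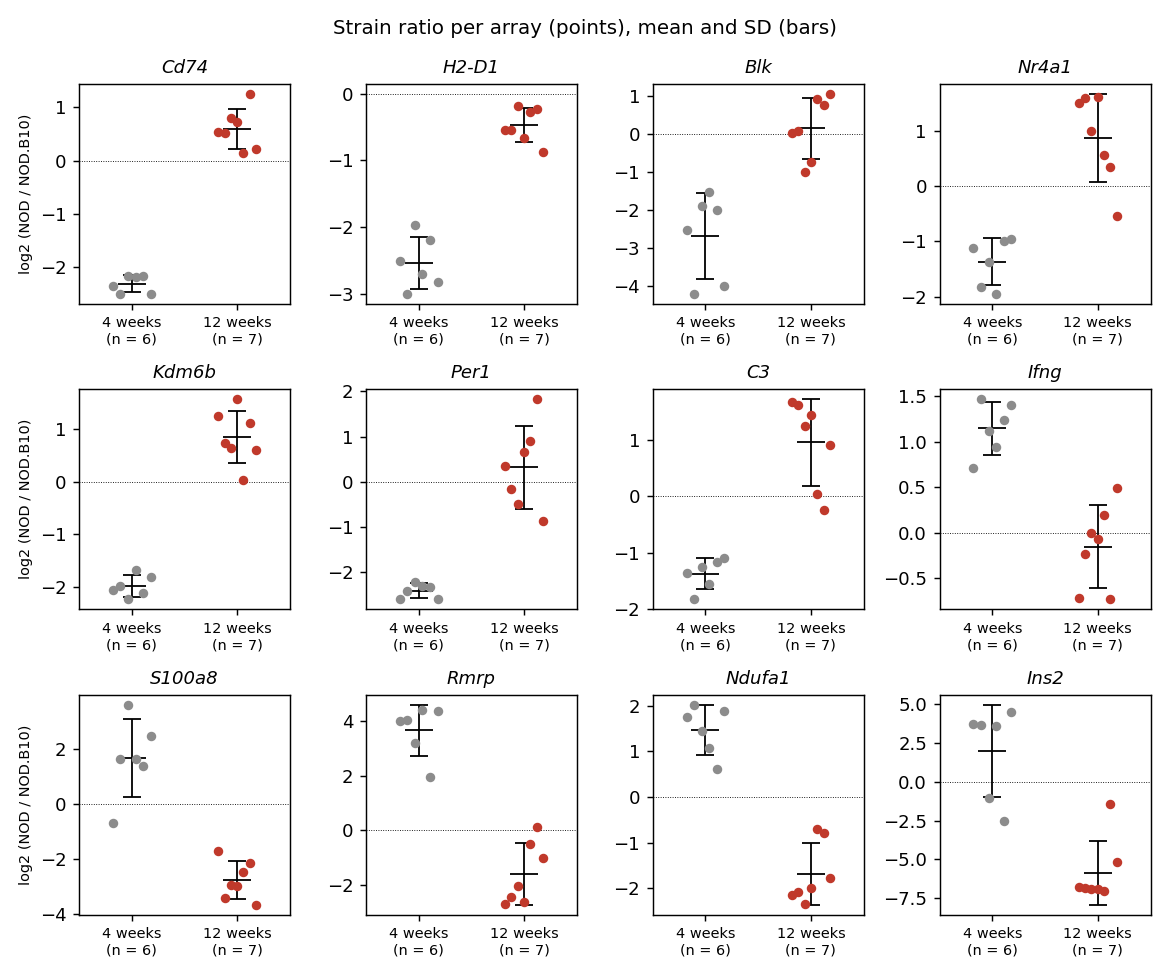
Strain ratio on every array (points; y axis, log2 of NOD over NOD.B10, scaled per panel) at 4 weeks (grey, n = 6) and 12 weeks (red, n = 7) for 12 genes, with mean and SD as bars. Cd74, Kdm6b and Per1 lie in a narrow range near -2 at 4 weeks and spread around 0 or above at 12 weeks, and for Ins2 the arrays of 4 weeks split into 4 above 0 and 2 below.

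T cell genes rose in part. Of 29 genes of the T cell receptor complex and its signalling, 15 rose (51.7%) and 4 fell (13.8%). Of 20 genes of naive T cells and recirculation, 11 rose (55%) and 4 fell (20%). All of these were measured genes, and of all measured genes 30.8% rose and 25.3% fell. Satb1, a chromatin organiser of developing and naive T cells, had ratios from -1.43 to -0.2 at 4 weeks, median -1.33, and from 0.19 to 0.96 at 12 weeks, median 0.39. The groups did not overlap, and the difference was 1.53 ± 0.19 (adjusted p = 1.13e-07). Its NOD difference was 0.59 and did not pass (adjusted p = 0.0799). Lef1 and Ets1, transcription factors of resting T cells, rose by 1.3 ± 0.19 and 0.93 ± 0.15. For Ets1 the control carried almost nothing, with a NOD difference of 0.93 (adjusted p = 0.00438). The NOD call of Lef1 (0.84, adjusted p = 0.026) was lost without replicate 2 at 4 weeks (adjusted p = 0.0682) or without replicate 3, 4 or 7 at 12 weeks. Igfbp4, a marker of naive T cells, rose by 1.96 ± 0.21 with a control share of 0.834, and its second probe by 1 ± 0.2. Within signalling, the phosphatase Ubash3a rose by 1.37 ± 0.19, the coreceptor Cd6 by 1.04 ± 0.17 (0.26 ± 0.23 by a dimmer probe), and the adaptor Lat by 0.85 ± 0.13.

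The T cell markers themselves gave a mixed picture. The brightest probe for Cd3e, a chain of the receptor complex, was lower at 12 weeks by 1.02 ± 0.25 (ratio difference -1.02, adjusted p = 0.00179), with all of it in the control channel, where it did not pass by itself (adjusted p = 0.0732). A second Cd3e probe was higher by 0.8 ± 0.17 (adjusted p = 0.00027). Cd8a, the CD8 alpha chain, differed by 0.19 ± 0.14 (adjusted p = 0.322), while another of its probes was higher by 0.77 ± 0.19 (adjusted p = 0.0016). Cd4 differed by -0.068 ± 0.21 (adjusted p = 0.828). A second Cd4 probe, above background in the control on 1 of 13 arrays, gave 1.09. Within NOD alone, where 5.23% of all genes were higher and 6.22% lower, 6 members of the receptor list were higher and none lower. Of the naive list 9 were higher and 2 lower. With an array left out in turn these counts of higher members ran from 4 to 8 and from 4 to 9. With the acinar and islet ratios as covariates, 2 receptor genes and 3 naive genes rose in the strain ratio, and with scanner as a block 3 of each.

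Of 26 B cell genes 14 rose (53.8%) and 3 fell (11.5%), and both counts held for the 25 measured. Of all measured genes 30.8% rose and 25.3% fell. In the NOD channel 10 of the list were higher and none lower, against 5.23% and 6.22% of all genes. Leaving out an array in turn gave 5 to 10 in the NOD channel, and the acinar and islet covariates left 7 in the ratio, as did the scanner block. Blk, a kinase of the B cell receptor pathway, had ratios from -4.2 to -1.52 at 4 weeks, median -2.26, and from -1 to 1.05 at 12 weeks, median 0.059. The groups did not overlap, and the difference was 2.83 ± 0.35 (adjusted p = 1.01e-07). The NOD signal of Blk was well above background on 3 of 6 arrays of 4 weeks and 5 of 7 of 12 weeks, so its size is uncertain. The NOD difference was 1.65 (adjusted p = 0.000924) and the control fell by 1.18. The IgM receptor Fcmr rose by 1.15 ± 0.15, mostly in NOD (0.86, adjusted p = 0.00836). Cxcr5, the chemokine receptor that brings B cells into follicles, rose by 1.1 ± 0.16, with 0.92 in NOD (adjusted p = 0.00496). Ighm, the IgM heavy chain, rose by 1.24 ± 0.17 over 6 and 4 arrays, and the transcription factor Spib by 1.05 ± 0.14. Vpreb3, expressed by immature B cells, was lower by 1.41 ± 0.16 (ratio difference -1.41). Icosl, the ligand on B cells and other presenting cells for the T cell receptor ICOS, rose by 1.62 ± 0.17.

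Immediate early genes, whose transcription starts within minutes of receptor signalling, and targets of NF-kappaB rose together. Of 36 tested, 20 rose (55.6%) and 2 fell (5.56%), and 21 rose without replicates 5 and 6 at 12 weeks. The 33 measured held the same 20 and 2, where 30.8% of all measured genes rose and 25.3% fell. Nr4a1, an orphan nuclear receptor induced by antigen receptor signals, had ratios from -1.95 to -0.95 at 4 weeks, median -1.24, and from -0.55 to 1.61 at 12 weeks, median 1. The groups did not overlap, and replicate 7 at 12 weeks was the one array of its age below the control. Nr4a1 rose 4.71-fold (2.23 ± 0.31, adjusted p = 8.27e-07). The whole difference was in NOD, where it rose by 2.77 (adjusted p = 2.32e-06), while the control moved the same way by 0.54. Junb, Egr1 and Ier2, also of this class, rose by 1.81 ± 0.21, 1.61 ± 0.27 and 1.49 ± 0.16, with control shares of 0.128, 0.0283 and 0.167. As the mean over its probes, Ier2 did not pass (0.46, adjusted p = 0.0546). Ccn1, a matricellular protein gene outside the list, rose by 2.08 ± 0.34, with 2.13 in NOD (adjusted p = 0.00022).

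Genes of the noncanonical arm of NF-kappaB moved mostly through the control. Relb, Nfkb2 and their upstream kinase Map3k14 rose by 1.78 ± 0.15, 1.59 ± 0.16 and 1.43 ± 0.15 in the ratio. Their control shares were 0.832, 0.738 and 1.07, and none passed in the NOD channel (adjusted p = 0.376, 0.434 and 0.782). In NOD, 9 members of the whole list were higher and none lower, against 5.23% and 6.22% of all genes. The higher count was 9 to 14 with an array left out in turn. On replicates 5 and 6 at 12 weeks the list's mean NOD signal was 11.73 and 11.72, and on the other arrays of 12 weeks 11.89 to 12.22. At 4 weeks it was 11.28 to 11.66, median 11.47. With the acinar and islet covariates 12 members rose, and with scanner as a block 7.

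Genes of the circadian clock, the feedback loop in which CLOCK and BMAL1 drive their own repressors through E-boxes, were also higher. Of 20 tested 10 rose (50%) and 2 fell (10%), against 17.8% and 19.2% of all genes. Of the 13 measured 8 rose and 1 fell, against 30.8% and 25.3% of all measured genes. In the NOD channel 4 were higher, where 5.23% of all genes were. Per1, a repressor of the loop, had ratios from -2.61 to -2.22 at 4 weeks, median -2.38, and from -0.88 to 1.83 at 12 weeks, median 0.35. The groups did not overlap and Per1 rose 6.65-fold (2.73 ± 0.32, adjusted p = 2.4e-08). Its NOD call (1.18, adjusted p = 0.0263) was lost without replicates 5 and 6 at 12 weeks (adjusted p = 0.136). Dbp and Tef, output transcription factors of the clock, rose by 2.18 ± 0.25 and 1.85 ± 0.25. The NOD channel of Dbp passed (1.25, adjusted p = 0.0107) and that of Tef did not (0.73, adjusted p = 0.0586). As the mean over its probes, Tef did not pass in the ratio either (0.44, adjusted p = 0.0742). Under the acinar and islet covariates 6 clock genes rose and with scanner as a block 3. Bhlhe40, a repressor induced by many stimuli, rose by 1.59 ± 0.17, with 1.26 in NOD (adjusted p = 0.000361). Tsc22d3, a target of the glucocorticoid receptor, rose by 2.16 ± 0.26, and its other probes gave 1.44 ± 0.26 and 0.73 ± 0.31 (adjusted p = 0.0643 for the latter). Its list of 19 glucocorticoid response genes had 5 higher (26.3%) and 6 lower (31.6%), against 17.8% and 19.2% of all genes. Of the 16 measured 5 were higher and 5 lower, against 30.8% and 25.3% of all measured genes.

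The E-box CACGTG, read on both strands (it is its own reverse complement), was present in the RefSeq promoter window (250 bases before to 50 after the start, build GRCm38.p6) of 5 of 24 starts of clock genes (20.8%). Among all 32851 starts of the table, 2349 held it (7.15%). By gene, 4 of 16 clock members held it: Per1 and Tef, which rose, and Bhlhe41 and Cry1, which did not pass. Of 7 risen members with a window 2 held it, and of 2 that fell none did. Any link of the match to the rise was not tested. The bases before the start of both are shown 5′ to 3′, with the match in capitals, because these are the risen members whose window holds the element the clock acts through.
Per1 (chr11:69098699-69098948, plus strand): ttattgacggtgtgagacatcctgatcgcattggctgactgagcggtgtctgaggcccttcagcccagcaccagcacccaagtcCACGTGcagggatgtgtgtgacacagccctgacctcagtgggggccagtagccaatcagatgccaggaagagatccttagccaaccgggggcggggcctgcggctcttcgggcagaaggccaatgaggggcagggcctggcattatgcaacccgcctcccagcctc
Tef (chr15:81802523-81802672, plus strand): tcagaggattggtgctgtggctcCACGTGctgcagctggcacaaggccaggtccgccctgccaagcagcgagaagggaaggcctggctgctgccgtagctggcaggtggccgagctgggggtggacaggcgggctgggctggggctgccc
A match is a description of the sequence and no measurement of binding.

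Granulocyte genes fell, and here the NOD channel carried the change. Of 22 genes of neutrophils and their precursors none rose and 14 fell (63.6%), where 17.8% and 19.2% of all genes did. Of the 13 measured 12 fell, against 25.3% of all measured genes. In the NOD channel none rose and 11 fell, against 5.23% and 6.22% of all genes, with a median NOD difference of -1.1. Without replicates 5 and 6 at 12 weeks, 13 fell in the ratio and 11 in NOD. S100a8, a subunit of the calprotectin complex of neutrophils, had ratios from -0.69 to 3.59 at 4 weeks, median 1.61, and from -3.66 to -1.72 at 12 weeks, median -2.94. The groups did not overlap, although replicate 1 at 4 weeks lay far below the other 5 arrays of its age. The ratio fell 21.4-fold (-4.42 ± 0.55, adjusted p = 8.42e-08), with a NOD difference of -4.11 (adjusted p = 1.29e-05) and a control difference of 0.31. The difference was -4.04 ± 0.49 for its partner S100a9 and -4.22 ± 0.56 for the antimicrobial peptide gene Camp. It was -4.33 ± 0.56 for Chil3, a lectin of granulocyte precursors and macrophages, whose groups overlapped at a single array. Retnlg, a resistin-like gene of neutrophils, fell by 1.87 ± 0.39, and Cstdc6, a stefin gene whose probe carries the older name Stfa1, fell by 4.28 ± 0.43. The list's mean NOD signal was 9 to 11.3 at 4 weeks, highest on replicate 3, and 7.96 to 9.38 at 12 weeks. The control signal was 9.35 to 9.76 and 9.31 to 9.76. Under the acinar and islet covariates 7 members fell, and with scanner as a block 4.

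Some platelet genes also fell. Of 15 tested 1 rose (6.67%) and 5 fell (33.3%), against 17.8% and 19.2% of all genes, and 9 did not pass. Of the 13 measured 1 rose and 5 fell, against 30.8% and 25.3% of all measured genes. The list median was -0.17 against -0.079 over all genes. In the NOD channel 1 rose and 6 fell, where 5.23% and 6.22% of all genes did. The chemokines of platelet granules, Pf4 and Ppbp, fell, with ratio differences of -2.57 ± 0.35 and -2.45 ± 0.37 and NOD differences of -2.22 (adjusted p = 4.49e-05) and -1.82 (adjusted p = 0.00293). Gp9, part of the von Willebrand factor receptor, fell by 1.97 ± 0.39. With the acinar and islet covariates none of these 3 passed, and Pf4 had an adjusted p of 0.0565. Red cell genes did not move in one direction in the ratio. Of 24 tested 4 rose (16.7%) and 2 fell (8.33%), against 17.8% and 19.2% of all genes. Alone, the NOD channel had none higher and 9 lower, and the control channel none higher and 14 lower. Over all genes these shares were 5.23% and 6.22% in NOD and 13.9% and 13.5% in the control. The 2 that fell in the ratio were Rhd and Bpgm, while Gypc and Epb42 were among those that rose. Rhd, a membrane protein of red cells, fell by 2.42 ± 0.64. Bpgm, which makes the haemoglobin ligand bisphosphoglycerate, fell by 0.95 ± 0.28, though not as the mean over its probes (-0.52, adjusted p = 0.138). At 4 weeks the mean NOD signal of the red cell list was 9.32 and 9.6 on replicates 5 and 6, against 10.77 to 11.41 on the other 4. The part of red cell RNA in the granulocyte and platelet results was not tested.

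**Figure D4:**
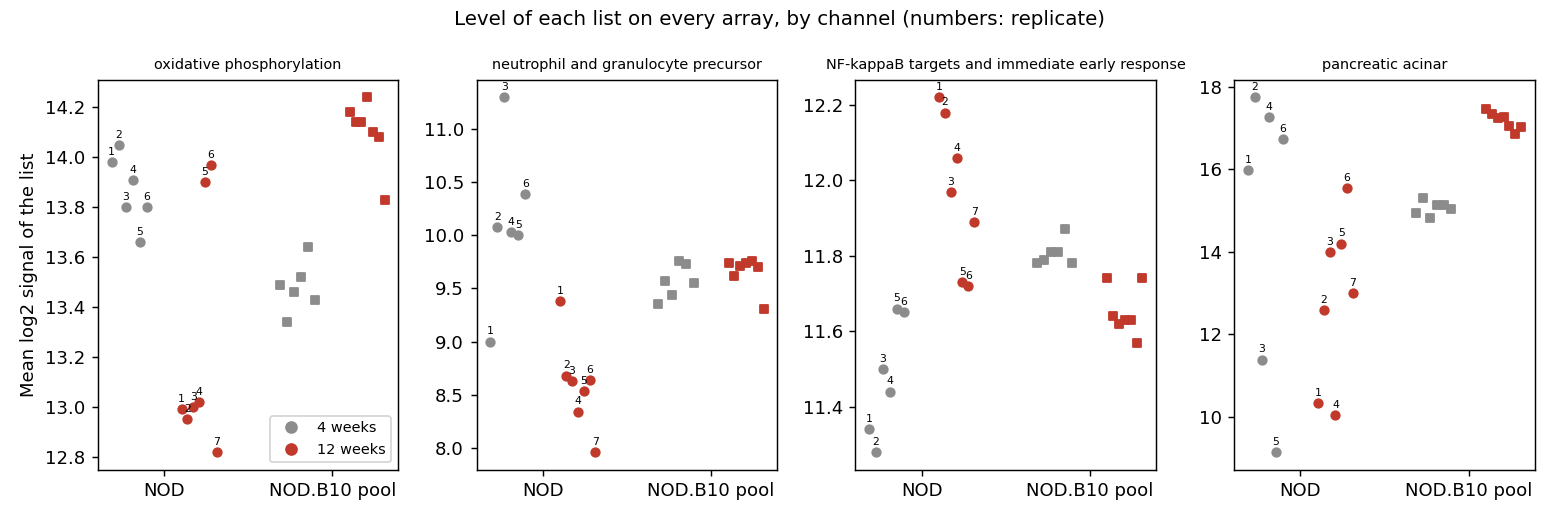
Mean log2 signal of 4 gene lists (y axis, scaled per panel) on each array at 4 weeks (grey) and 12 weeks (red), for the NOD channel (circles, numbered by replicate) and the NOD.B10 pool (squares). For oxidative phosphorylation, replicates 5 and 6 at 12 weeks lie at the NOD level of 4 weeks, and for acinar genes the NOD arrays of both ages spread over several log2 units while the pool does not.

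Nuclear genes of oxidative phosphorylation, which code for the mitochondrial respiratory chain and ATP synthase, mostly fell. Of 59 tested 51 fell (86.4%) and 4 rose (6.78%), with a median difference of -1.32. All 59 were measured, and of all measured genes 25.3% fell and 30.8% rose. Ndufa1, a subunit of complex I, had ratios from 0.61 to 2.02 at 4 weeks, median 1.6, and from -2.34 to -0.7 at 12 weeks, median -2. NOD nodes were above the control on every array of 4 weeks and below it on every array of 12 weeks. The ratio fell 8.91-fold (-3.16 ± 0.23, adjusted p = 3.2e-12), of which the control carried 0.566, and the NOD signal fell by 1.37 (adjusted p = 0.000129). Cox7c of complex IV fell by 2.4 ± 0.19 on the log2 scale, with a NOD difference of -1.45 (adjusted p = 0.00504). Ndufb3 of complex I and Atp5j of ATP synthase had differences of -1.97 ± 0.15 and -1.57 ± 0.11, with control shares of 0.783 and 0.819 and no NOD call (adjusted p = 0.209 and 0.227).

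Within NOD alone 27 of the 59 fell and none rose, where 6.22% and 5.23% of all genes did. In the control 39 rose and 3 fell, against 13.9% and 13.5% of all genes. On NOD arrays the list's mean signal was 13.66 to 14.05 at 4 weeks. At 12 weeks it was 12.82 to 13.02 on 5 arrays but 13.9 and 13.97 on replicates 5 and 6. Without those 2 arrays 37 fell in NOD and 51 in the ratio, and scaling on the 75th percentile left 17 in NOD. With an array left out in turn, 48 to 52 fell in the ratio and 20 to 30 in NOD, and the acinar and islet covariates left 37 in the ratio and the scanner block 34.

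The NRF1 motif (GCGCA, then any base, then GCGC), read on both strands, was found in 13 of 52 promoter windows of this list (25%), for 47 genes that the RefSeq table holds. It was found in 1512 of all 32851 windows (4.6%). Windows of members that fell held it in 11 of 47 cases (23.4%), and those of members that rose in 2 of 3 (66.7%). NRF1 is a transcription factor of nuclear respiratory genes. The 150 bases before the start are shown for 4 members of complexes I, II and V, chosen for their match after their values were seen, with the match in capitals.
Ndufa5 (chr6:24527691-24527840, minus strand): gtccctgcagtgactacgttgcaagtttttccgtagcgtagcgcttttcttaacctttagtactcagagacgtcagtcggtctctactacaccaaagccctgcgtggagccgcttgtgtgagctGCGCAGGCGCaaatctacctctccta
Ndufa8 (chr2:36049339-36049488, minus strand): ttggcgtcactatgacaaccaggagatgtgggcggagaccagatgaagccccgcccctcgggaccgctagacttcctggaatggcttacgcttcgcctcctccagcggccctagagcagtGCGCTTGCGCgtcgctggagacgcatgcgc
Atp5h (chr11:115419920-115420069, minus strand): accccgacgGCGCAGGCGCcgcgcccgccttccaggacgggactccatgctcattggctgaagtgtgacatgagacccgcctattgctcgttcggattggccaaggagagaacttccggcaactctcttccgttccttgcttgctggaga
Sdhd (chr9:50603850-50603999, minus strand): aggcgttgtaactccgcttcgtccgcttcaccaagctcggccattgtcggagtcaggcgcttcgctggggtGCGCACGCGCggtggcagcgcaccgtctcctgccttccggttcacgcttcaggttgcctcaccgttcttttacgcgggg
The ratio difference was -2.17 ± 0.2 for Ndufa5, -1.36 ± 0.13 for Ndufa8, -1.28 ± 0.18 for Atp5h and -1.15 ± 0.13 for Sdhd. In NOD alone, Ndufa5 passed (-0.75, adjusted p = 0.0123), as did Atp5h (-0.61, adjusted p = 0.0309), and Ndufa8 and Sdhd did not (adjusted p = 0.227 and 0.273). Both NOD calls were lost with the signal scaled on the 75th percentile, and that of Atp5h also with any of several single arrays left out.

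Ribosomal protein genes fell in 25 of 45 cases (55.6%) and rose in 5 (11.1%), and 19 were saturated on at least 1 array. Of the 41 measured 25 fell and 4 rose, against 25.3% and 30.8% of all measured genes. Rpl37 and Rpl24 had differences of -2.66 ± 0.18 and -1.82 ± 0.17, with control shares of 0.892 and 0.73. Rpl35a fell by 2.07 ± 0.25 over 6 and 5 arrays, all of it in NOD (-2.14, adjusted p = 0.000518). Alone, the NOD channel had 4 lower members, where 6.22% of all genes were lower. It had 17 without replicates 5 and 6 at 12 weeks or 1 with scaling on the 75th percentile. The acinar and islet covariates left 15 that fell in the ratio and the scanner block 10. In the control channel 19 rose, or 12 with quantile normalization, which then had 10 falling in place of 3. Proteasome genes went both ways, such as Psmd3 of the lid (1.51 ± 0.14) and Psmb4 of the core (-1.31 ± 0.12). Of 31, all measured, 9 were higher (29%) and 13 lower (41.9%), against 30.8% and 25.3% of all measured genes. The mitochondrial chaperonin gene Hspe1 fell by 1.73 ± 0.19. Rmrp, the RNA of the RNase MRP complex that processes ribosomal RNA, had ratios from 1.94 to 4.4 at 4 weeks, median 4.03, and from -2.69 to 0.13 at 12 weeks, median -2.06. Every array of 4 weeks was above every array of 12 weeks, where replicate 6 was highest. Rmrp fell 38.5-fold (-5.27 ± 0.44, adjusted p = 4.04e-11), with a NOD difference of -4.87 (adjusted p = 1.37e-07).

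Genes of the exocrine pancreas, and a few of the islets, had large differences that came with high spread between NOD arrays. Of 36 acinar genes none rose and 22 fell (61.1%), with a median of -4.07. Of 36 islet genes 2 rose (5.56%) and 19 fell (52.8%), with a median of -0.77. Over all genes 17.8% rose and 19.2% fell. In the control channel 30 acinar and 18 islet genes were higher at 12 weeks, against 13.9% of all genes. Of the NOD signals, those of 4 acinar genes and 1 islet gene fell, and those of 2 islet genes rose. Over all genes 6.22% fell in NOD and 5.23% rose. Only 16 acinar genes were measured in both channels at both ages, and 19 were saturated on at least 1 array. The list's mean NOD signal at 4 weeks was 15.97 to 17.74 on replicates 1, 2, 4 and 6, 11.39 on replicate 3 and 9.15 on replicate 5, and it was 10.04 to 15.54 at 12 weeks. Without replicate 5 at 4 weeks, 34 acinar genes fell, and with the acinar and islet covariates 1 did. The acinar covariate is the mean of these same genes, so the latter count is no test of them.

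In the duct and epithelium list none of 24 genes were higher and 8 lower (33.3%), against 17.8% and 19.2% of all genes. Tff2, a trefoil peptide gene of that list, had ratios from -4.61 to 3.71 at 4 weeks, median 2.11, and from -7.73 to -2.28 at 12 weeks, median -6.01. The groups overlapped through replicates 3 and 5 at 4 weeks. The difference was -6.31 ± 1.2 (adjusted p = 8.18e-05), of which the control carried 0.662. The acinar transcription factors Bhlha15 and Rbpjl had differences of -4.07 ± 0.71 and -5.02 ± 0.92, and a dimmer Bhlha15 probe gave -0.49 ± 0.24 (adjusted p = 0.112). The NOD spots of Reg2, a secreted lectin, were saturated on 4 of 6 arrays of 4 weeks, and no size is given. The epithelial keratin Krt18 fell by 4.52 ± 1.12. Among genes outside the pancreas lists, the difference was -5.7 ± 0.78 for Mt2, a metallothionein, -5.15 ± 0.88 for the stress gene Nupr1 and -4.81 ± 0.59 for Fkbp11, a chaperone of secretory cells. Their control shares were 0.807, 0.688 and 0.643.

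Ins2, one of the mouse insulin genes and an autoantigen of NOD diabetes, had ratios from -2.52 to 4.5 at 4 weeks, median 3.63, and from -7.05 to -1.4 at 12 weeks, median -6.83. It was above the control on 4 arrays of 4 weeks and below it on replicates 3 and 5, the arrays lowest in acinar signal, and on all 7 of 12 weeks. Replicate 6 at 12 weeks was the highest of its age. The difference was -7.84 ± 1.15 (adjusted p = 1.63e-06), and a second probe gave -6.78 ± 1.15. The control signal rose by 5.64 and the NOD difference of -2.2 did not pass (adjusted p = 0.217). Ins1 was not above background in the control on most arrays of 4 weeks, and no fold is given. Pcsk2, the proinsulin convertase, fell by 2.41 ± 0.35, all of it in the control. With the acinar and islet covariates Ins2, Pcsk2, Bhlha15 and Rbpjl no longer passed. These genes belong to the lists whose means form the covariates, so the loss of their calls tests nothing.

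Regulators of peripheral antigen expression split by probe. Deaf1, a transcription factor of tissue-restricted genes in lymph node stroma, was measured by 3 probes. The brightest had ratios from -2.16 to 4.4 at 4 weeks, median 1.86, and from -6.1 to -1.41 at 12 weeks, median -5.13. A second probe for the same RefSeq transcript had ratios from -1.37 to -0.65, median -1.1, and from -0.13 to 0.75, median 0.019. The first spread over several log2 units and overlapped, with replicates 3 and 5 lowest at 4 weeks as for acinar genes, and the second was tight and did not overlap. The differences were -5.84 ± 1.02 (adjusted p = 3.07e-05) and 1.21 ± 0.15 (adjusted p = 1.79e-07). In the NOD channel they were -2.05 and 0.61, and in the control 3.79 and -0.6. The control signal of the first at 12 weeks was 16.65 on replicate 7 and 12.55 to 13.52 on the others. Another probe, above background on no control array, gave 0.25 ± 0.31. Which probe reports the full transcript was not tested. Aire, the regulator best known from the thymus, rose by 0.95 ± 0.21 (adjusted p = 0.000381), though not with the acinar and islet covariates (0.47, adjusted p = 0.327). Of the 15 regulators listed 9 rose (60%) and 1, Deaf1, fell (6.67%), against 17.8% and 19.2% of all genes. Relb, Nfkb2 and Map3k14, given above, are among the 9. In the NOD channel 1 was higher and none lower, with a median of 0.03, where 5.23% and 6.22% of all genes were. In the control 2 were higher and 10 lower, with a median of -0.71, against 13.9% and 13.5% of all genes.

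**Figure D5:**
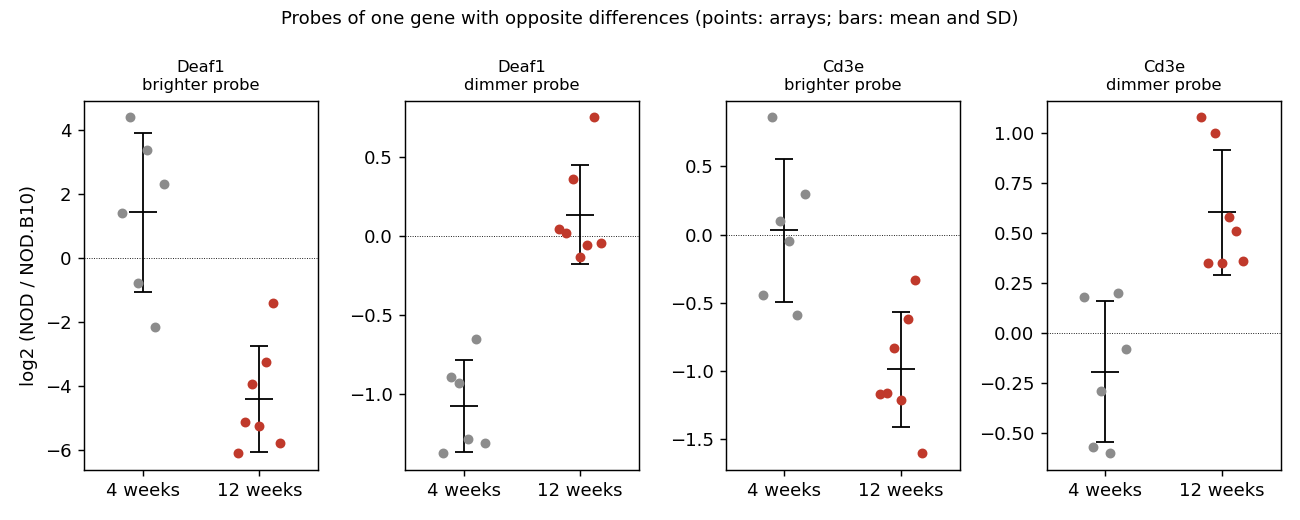
Strain ratio on each array (points; y axis, log2 of NOD over NOD.B10, scaled per panel) at 4 weeks (grey) and 12 weeks (red) for the brightest probe and a dimmer probe of Deaf1 and of Cd3e, with mean and SD as bars. In both genes the brighter probe is lower at 12 weeks and the dimmer one higher.

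Of 25 genes of effector T cells and natural killer cells 3 rose (12%) and 5 fell (20%), against 17.8% and 19.2% of all genes. Ifng, the main cytokine of T helper 1 cells, had ratios from 0.71 to 1.47 at 4 weeks, median 1.18, and from -0.73 to 0.49 at 12 weeks, median -0.062. All arrays of 4 weeks were above the control and above every array of 12 weeks. Ifng fell 2.46-fold (-1.3 ± 0.29, adjusted p = 0.000559), while its NOD difference of -0.62 did not pass (adjusted p = 0.186). A dimmer Ifng probe, above background on 4 of 13 control arrays, gave -0.14 ± 0.24 (adjusted p = 0.685). Cst7, a cystatin of cytotoxic cells, fell by 1.47 ± 0.19. Among 36 cytokines and receptors of T helper cells 16 rose (44.4%) and 5 fell (13.9%), against 17.8% and 19.2% of all genes. Of the 20 measured 14 rose and 2 fell, against 30.8% and 25.3% of all measured genes. In the whole list 6 rose under the acinar and islet covariates and 2 with scanner as a block. Il2rg, the common gamma chain of the interleukin 2 receptor family, rose by 2.05 ± 0.2, with 0.91 in NOD (adjusted p = 0.0131, and 0.0523 without replicates 5 and 6 at 12 weeks). Of 19 regulatory T cell genes 4 rose (21.1%) and 7 fell (36.8%), against 17.8% and 19.2% of all genes. Their median difference was -0.056, near the -0.079 over all genes. In NOD 1 was higher and none lower, where 5.23% and 6.22% of all genes were. Socs2, a suppressor of cytokine signals on that list, was lower by 1.92 ± 0.24 (-0.75 ± 0.33 by a dimmer probe, adjusted p = 0.0732). Foxp3, Ctla4, Il2 and Il21 were not well above background in the control on most arrays, so no fold is given. Ptpn22, a phosphatase tied to diabetes risk, differed by -0.16 ± 0.2 (adjusted p = 0.57).

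Of the type I interferon response genes 5 of 34 were higher (14.7%) and 7 lower (20.6%) in the ratio, near the 17.8% and 19.2% of all genes. In NOD 1 was higher and 6 lower, where 5.23% and 6.22% of all genes were. Isg15, a ubiquitin-like protein induced by interferon, had ratios from 0.31 to 1.59 at 4 weeks, median 0.65, and from -1.97 to 0.85 at 12 weeks, median -1.08. Replicate 5 at 12 weeks was the one array of its age above the control. Isg15 fell by 1.71 ± 0.3 on the log2 scale, all of it in NOD (-1.75, adjusted p = 0.000874). Rtp4 and Ifi27l2a, also induced by interferon, had differences of -1.79 ± 0.3 and -3.01 ± 0.42. The genes named here all fell, while the 5 that rose are not named. They do not stand for the list, whose median of -0.055 was near the -0.079 over all genes. Without replicate 5 at 12 weeks 11 members fell, and in NOD 10 fell without replicates 5 and 6. Among 33 chemokines 2 rose (6.06%) and 8 fell (24.2%), against 17.8% and 19.2% of all genes. Both counts held for the 23 measured, against 30.8% and 25.3% of all measured genes. Ccl19, which guides T cells through the node, rose by 0.9 ± 0.23 and Ccl25, a chemokine of gut and thymus, fell by 1.21 ± 0.15, though not as the mean over its probes (-0.14, adjusted p = 0.549). The B cell chemokine Cxcl13 differed by -0.33 ± 0.18 (adjusted p = 0.162).

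Stromal and endothelial genes rose in the ratio, and the control channel held more calls than NOD. Of 27 genes of reticular and other stroma 12 rose (44.4%) and none fell, and of 24 of blood endothelium 12 rose (50%) and 2 fell (8.33%). Over all genes 17.8% rose and 19.2% fell. Of those measured, 12 of 25 stromal and 10 of 19 endothelial genes rose, against 30.8% of all measured genes. With the acinar and islet covariates 4 and 6 rose, and with scanner as a block 3 and 6. The extracellular matrix genes Fn1 and Col6a1 rose by 1.85 ± 0.33 and 1.87 ± 0.32. Their control differences were -2.48 and -2.17, and their NOD differences did not pass (adjusted p = 0.339 and 0.503). Clu, the chaperone clusterin, was an exception with 1.35 of 1.5 ± 0.19 in NOD (adjusted p = 0.000692). The endothelial genes Eng and Cdh5 rose by 1.12 ± 0.13 and 1.77 ± 0.24 without a NOD call, and Pecam1 by 1.22 ± 0.17 with one (0.92, adjusted p = 0.0157). Glycam1, a mucin of high endothelial venules, differed by 0.57 ± 0.23 (adjusted p = 0.053). Of 33 genes of dendritic cells and macrophages 9 rose (27.3%, and 8 of the 28 measured) and 2 fell, where 17.8% of all tested and 30.8% of all measured genes rose. Csf1r, the receptor for the macrophage growth factor, and Irf8, a factor of dendritic cells, rose by 1.66 ± 0.16 and 1.34 ± 0.14, with control shares of 1.01 and 0.934. Marco, a scavenger receptor of sinus macrophages, rose by 1.97 ± 0.25. The complement genes C3 and C4b rose by 2.33 ± 0.25 and 1.71 ± 0.21, C3 with a NOD rise of 1.16 (adjusted p = 0.00888) and C4b without (adjusted p = 0.874). A dimmer C3 probe gave 0.1 ± 0.29 (adjusted p = 0.819). In the complement list, and in that of dendritic cells and macrophages, 1 gene each was saturated on at least 1 array.

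Of 55 cell cycle genes 16 were higher (29.1%) and 7 lower (12.7%), against 17.8% and 19.2% of all tested genes. Of the 50 measured, 14 were higher and 7 lower, against 30.8% and 25.3% of all measured genes. Leaving out replicate 6 at 4 weeks took the higher count to 8, and the scanner block took it to 1. Cdc25b, a phosphatase that starts mitosis, rose by 1.98 ± 0.17, all of it in the control. Tyms, thymidylate synthase, fell by 1.09 ± 0.22, all of it in NOD (-1.04, adjusted p = 0.00254). No member was higher in NOD and 4 were lower (1 with scaling on the 75th percentile), against 5.23% and 6.22% of all genes. In the control 3 were higher and 28 lower, against 13.9% and 13.5%.

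Among the highest differences outside the lists, the vesicle protein gene Vamp2 rose 9.55-fold (3.26 ± 0.22), but 2 dimmer probes gave 0.33 ± 0.2 and 0.17 ± 0.22. The histone demethylase gene Kdm6b had ratios from -2.24 to -1.68 at 4 weeks, median -2.02, and from 0.04 to 1.57 at 12 weeks, median 0.73. It was below the control on every array of 4 weeks and above it on every array of 12 weeks. Kdm6b rose by 2.83 ± 0.18 (adjusted p = 1.93e-13) with a control share of 0.715. Sik1, a kinase induced by cyclic AMP, rose by 2.81 ± 0.39, with 1.81 in NOD (adjusted p = 0.00559). Sbno2, Ptk2b, a kinase of integrin signalling, and Coro1a, an actin regulator of leukocytes, rose by 2.83 ± 0.25, 2.68 ± 0.19 and 2.5 ± 0.16. A dimmer Ptk2b probe for the same transcript, above background on all 13 arrays, was lower (-1.08 ± 0.24, adjusted p = 0.000572), and a dimmer Sbno2 probe gave 0.92 ± 0.3. Hsp90ab1, an abundant chaperone gene of the heat shock list, rose by 2.11 ± 0.14 with a control share of 0.961. Of that list 9 of 31 were higher (29%) and 6 lower (19.4%), against 17.8% and 19.2% of all genes. Of the 30 measured 8 were higher and 6 lower, against 30.8% and 25.3% of all measured genes.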

How the data were processed

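Each array was a 2-colour Agilent whole mouse genome array with NOD RNA in Cy3 and pooled NOD.B10 RNA in Cy5, with no dye swap, so a dye bias cancels between ages only where it stays the same. The processed intensities were background-subtracted and dye-normalised within each array by Feature Extraction (8.5, per the submitters' processing notes), per the file headers; per the file headers, the mean and background intensities were unprocessed. The headers name an earlier release of the software on replicate 7 at 12 weeks. The deposited values are log10 ratios of NOD over NOD.B10, per the labels, and matched the scanner's log10 ratio with its sign turned.

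The log2 ratio of processed signals was analysed, without control spots and outlier-flagged spots. A probe entered if at least 4 arrays had it well above background in one channel or the other (40833 of 41174), and the brightest probe stood for a gene (28438 genes, 19260 with a symbol). "Measured" means well above background, in each channel and at each age, on no fewer arrays than it was not, and not saturated throughout a group. A mean over a list covers members with a value on every array. Names were updated through a RefSeq table (GRCm38.p6), with 21445 probes found through their accession, 5431 through the symbol, 4636 through a synonym and 9662 not found. Promoters came from RefSeq, same build. The genome build behind the probes was not given in the sources used here.

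Means of 6 ages were fitted over 35 arrays with limma 3.58.1 in R 4.3.3 (lmFit, eBayes; Benjamini-Hochberg at 0.05), and the fit was tested on simulated data. Channels alone were fitted after Aquantile normalization, which keeps the ratio; the control share is minus the control difference over the ratio difference. The control's p-values rest on spread between arrays of pooled RNA, which may be technical, and do not measure spread between animals. Array number limits the precision. The named genes were the 12 highest and lowest differences, the 10 highest and lowest carried by NOD (control share under 0.25), up to 4 per list and a fixed set; some were left out for length. The members and lists were chosen with earlier results of these data known. Replicate numbers do not pair the samples. Alternatives were background correction, deposited values, filters, centring, probes, blocks, weights, covariates and arrays left out.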

Additional observations from a re-analysis of the deposited data

Results flagged for a closer look

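Of 310 sets of values (a gene or list at 1 age), 18 had a lowest or highest array far from the others, where chance gives about 1 in 20. All values are log2 strain ratios, each with the nearest other array of its age. At 12 weeks, replicate 6 was highest for several genes. It was at -1.4 for Ins2 (next -5.14), -1.04 for Ins1 (next -4.87; NOD signal well above background on 3 of 7 arrays), 0.21 for Rpl35a (next -1.44), 0.93 for Nfkb2 (next -0.12), 2.22 for Vamp2 (next 1.23), 1.1 for Coro1a (next 0.4), 0.84 for Sbno2 (next 0.31) and 0.77 for Eng (next 0.26). Its mean over the regulators of peripheral antigen expression was 0.31 (next -0.029). Replicate 5 at 12 weeks was highest for Rtp4, at 1.99 (next 0.32), and for the type I interferon list, at 0.96 (next 0.13). Replicate 1 was highest for S100a9, at -0.57 (next -2.07), replicate 2 for the duct and epithelium list, at 0.52 (next -0.56), and replicate 7 was lowest for Tsc22d3, at -0.1 (next 0.53). At 4 weeks, replicate 5 was highest for Fcmr, at -1.05 (next -1.58), and for the clock list, at -0.17 (next -0.43), and lowest for the ribosomal list, at -0.17 (next 0.19). Replicate 3 was highest for the platelet list, at 0.5 (next -0.42).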

How the results depend on the processing

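The scanner block and the pancreas covariates changed the counts of called genes most. With scanner as a block 1144 genes were higher and 1626 lower, and with the acinar and islet covariates 2060 and 2029. Scaling on the 75th percentile left 799 lower in the NOD channel. Keeping probes that cleared background in each channel of every array, 3303 genes were higher and 2768 lower, 1018 and 1057 of them by at least 1, among fewer genes tested (9535). With scanner as a block, 1085 were higher and 1590 lower by at least 1, and with the acinar and islet covariates 1511 were lower by at least 1. Normexp and loess left 521 and 801 past that size limit, and counting every probe gave 3219 higher. The causes were not tested. With an array left out in turn, 4577 to 5389 genes were higher and 4960 to 5656 lower, 1879 to 2368 and 2481 to 2855 by at least 1. In the NOD channel alone, 921 to 1820 were higher and 1170 to 1917 lower, and in the control 3565 to 4242 and 3422 to 3870. The median control share was 0.56 to 0.62 under quantile and 75th percentile scaling and with arrays left out. A replicate block called 4745 higher and 5139 lower, and in no named gene did it end or turn a call in the ratio. Same-numbered arrays of both ages correlated at -0.1 to 0.0088 in their deviations, so the numbers are not a pairing. Named genes that turned were Deaf1, to 1.21 with the filter on both channels, which chooses its second probe, and Cd4 to 0.51 with the mean over all probes.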
